A study of Homo sapiens with 30 samples.

Results

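The comparison asked how the response to ML-792 differed between the colorectal cancer lines COLO205 and HCT116. It used 12 of the 30 libraries of the series, chosen by their titles as all libraries of these lines at 16 h. Each line had 3 libraries treated for 16 h with 500 nM ML-792 (named ML00754792 in the labels) and 3 treated with 0.01% DMSO, the vehicle, and the labels describe the RNA as biological triplicates. For each gene, the difference was the ML-792 minus DMSO effect in COLO205 minus the same effect in HCT116, on the scale of log2(FPKM + 1), where FPKM counts fragments per kilobase of transcript, scaled to library size. A positive difference means a higher effect in COLO205, either a larger rise or a smaller fall than in HCT116. The lines were compared at a single dose and time. Line and any handling that differed between the lines cannot be told apart, and p-values measure only the spread between these libraries.

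SUMO proteins are small modifiers that are joined to lysines of other proteins. A heterodimer of SAE1 and UBA2, the SUMO-activating enzyme, starts the reaction, and E3 ligases help to place SUMO on its targets. Many modified proteins are transcription factors and chromatin proteins, on which SUMO often limits transcription. ML-792 blocks the activating enzyme, and proteases then strip SUMO from proteins already modified.

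Estimated depth was 27.4 to 34.9 M fragments per library, and mitochondrial genes took 16.3% to 18.9% of the summed FPKM. Of 14 colorectal epithelial markers, 12 reached 1 FPKM on average in both COLO205 groups and 8 in both HCT116 groups. Their sums were 4215 to 5106 FPKM in COLO205 libraries and 1733 to 2166 FPKM in HCT116 libraries. EPCAM averaged 467 FPKM in COLO205 and 113 FPKM in HCT116 with DMSO, and the brush border gene VIL1 averaged 114 and 0.0188 FPKM. The colonic marker KRT20 stayed under 1 FPKM in both. The epithelial markers with higher means in HCT116 with DMSO were KRT20, KRT19 (358 and 477 FPKM) and CDX2 (0.275 and 5.87 FPKM). Of 8 mesenchymal markers 1 reached 1 FPKM in COLO205 and 5 did in HCT116, where CAV1 averaged 106 FPKM. The leukocyte genes PTPRC and CD3E were at or near 0 in every library, whereas LYZ, the lysozyme gene, averaged 795 FPKM in COLO205 with DMSO and 0.133 FPKM in HCT116. CD68, of the same marker list, averaged 158 and 4.53 FPKM in these groups.

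One library stood apart from its replicates. In COLO205 ML-792 library 3, 115 tested genes lay more than 0.75 log2 units from the mean of the other 2 libraries, 109 of them below it. In COLO205 ML-792 library 1 there were 80 such genes, 72 of them above, and in the other 10 libraries 8 to 23. EGR1, an immediate early transcription factor, had 82.5, 84.7 and 17.1 FPKM in COLO205 ML-792 libraries 1, 2 and 3, against 92.2, 108 and 103 FPKM with DMSO. FOS had 27.8, 29.6 and 8.36 FPKM in the same ML-792 libraries, and the growth factor gene AREG had 175, 175 and 48.5 FPKM. Values below include library 3 unless its removal is stated, and values without it are given for some results only.

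**Figure D1:**
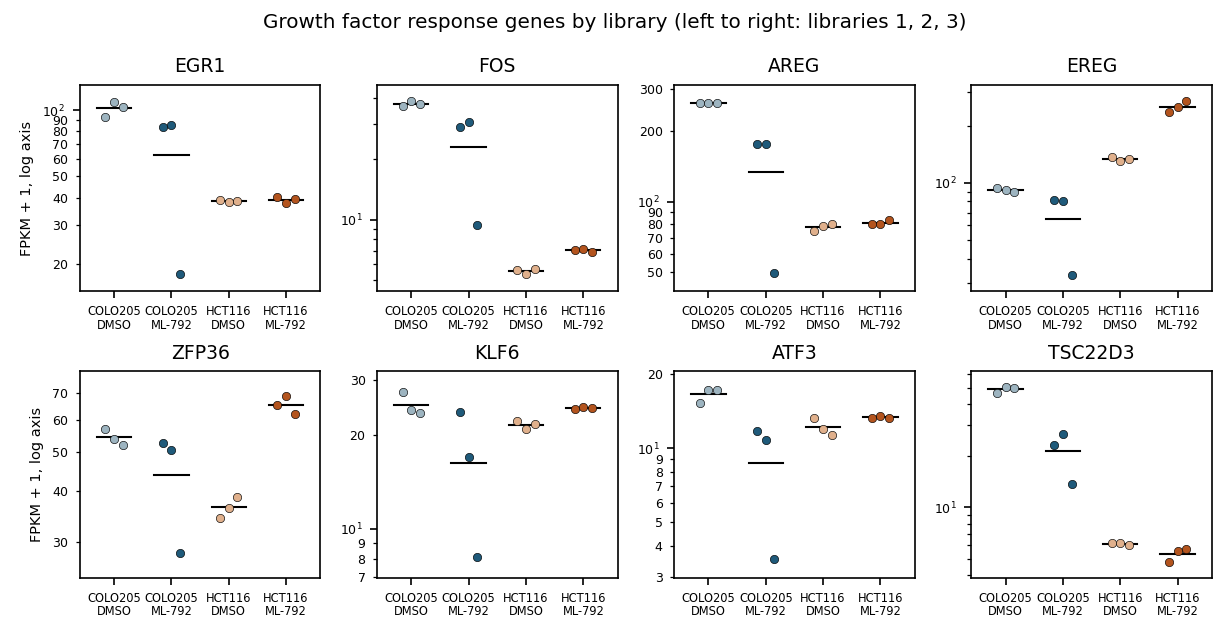
FPKM + 1 (log axis) of 8 genes in the 4 groups, most of them growth factor response genes. TSC22D3 among them is a glucocorticoid-induced gene. Points are libraries 1, 2 and 3 from left to right and lines are arithmetic group means. COLO205 ML-792 library 3 is the lowest library of its group for all 8 genes, for example 17.1 FPKM for EGR1 against 82.5 and 84.7. The genes were chosen after their values were seen, so that shared position is not separate evidence about the library.

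The response was larger in COLO205. Of 13553 genes with at least 1 FPKM in at least 3 libraries, 4851 (35.8%) changed in COLO205, 2479 higher (18.3%) and 2372 lower (17.5%), and 1740 (12.8%) changed in HCT116, 953 higher (7.03%) and 787 lower (5.81%), at a Benjamini-Hochberg adjusted p under 0.05 in limma. At least 2-fold changes were called for 111 genes in COLO205 and 31 in HCT116. The HCT116 count was 1072, 970, 904 and 892 without its DMSO library 2, DMSO library 3, ML-792 library 2 and ML-792 library 3. It was 2123 and 2584 without its DMSO library 1 and ML-792 library 1. The difference itself was called for 2215 genes (16.3%), of which 1120 (8.26%) had the higher effect in COLO205 and 1095 (8.08%) the lower one. Without COLO205 ML-792 library 3 there were 1986, 970 higher and 1016 lower.

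A difference of at least 2-fold was called for 100 genes (0.738%). Of the 2215 genes, 1539 had an effect called in COLO205 and not in HCT116, 358 the reverse, 103 changed the same way with the larger change in COLO205, 33 the same way with the larger change in HCT116, and 93 (0.686%) changed in opposite directions. For the remaining 89 neither line's effect was called.

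A line was taken to express a gene that reached 1 FPKM in at least 3 of its 6 libraries. Both lines expressed 10872 of the tested genes, COLO205 alone 1178, HCT116 alone 1483 and neither alone 20. Differences were called for 1650 of the genes that both express (15.2%), 363 of those that COLO205 alone expresses (30.8%) and 201 of those that HCT116 alone expresses (13.6%). These classes use DMSO and ML-792 libraries together, so a gene that the drug raised can enter a class through that rise. Of the 363, 51 did not reach 1 FPKM in at least 2 of the 3 COLO205 DMSO libraries, PNPLA7 and CREB3L3 among them. Classes set by that limit from the DMSO libraries alone, chosen after seeing the data, gave 14.9%, 28.3% and 15.2%. Of the 189 genes that neither line expressed by that limit, 65 were called (34.4%), 53 with a higher and 12 with a lower effect in COLO205. These genes could pass the filter of 1 FPKM in at least 3 of the 12 libraries only with the help of ML-792 libraries. Their share and its direction are therefore not independent of the filter, and no conclusion is drawn from them. Low levels in the other line also limit the effect there, although 17 of the 363 and 40 of the 201 had a called effect in the line below the limit. Among genes that both lines express, the median absolute effect was 0.13 in COLO205 and 0.09 in HCT116 on the log2 scale. Across these genes the effects had a Pearson r of 0.42 and a Spearman rho of 0.43, and of 4722 genes called in at least 1 line 74.2% had the same sign in both. Genes are not independent replicates, so these are descriptions. The COLO205 effect had a Spearman rho of -0.27 with GC content and the HCT116 effect one of -0.47, and the difference one of 0.04.

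**Figure D2:**
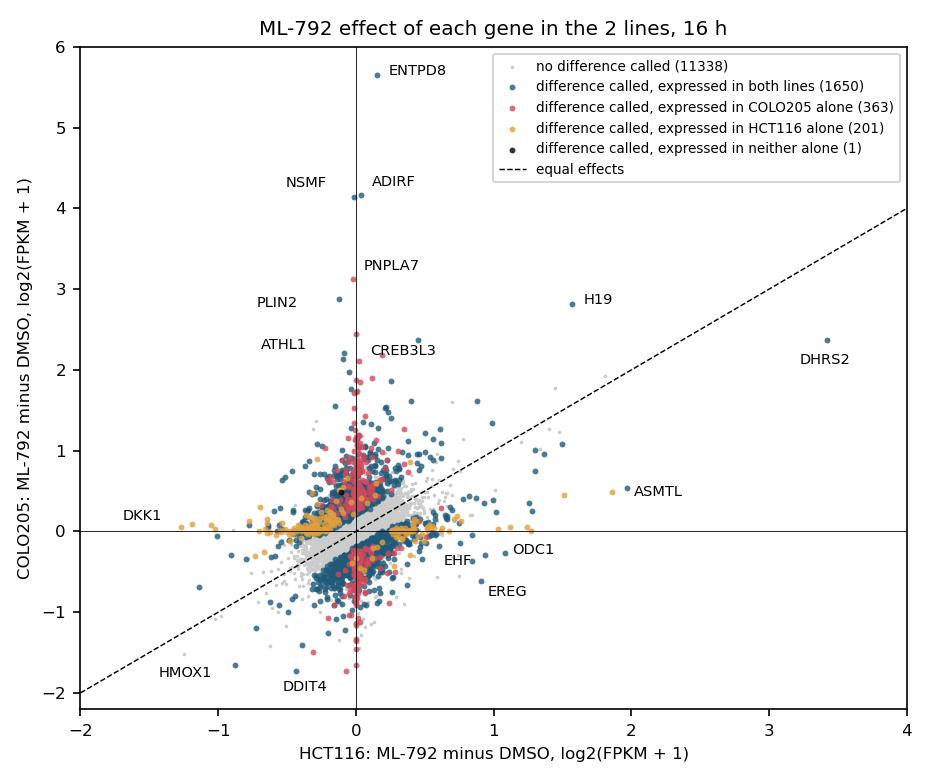
Effect of ML-792 in HCT116 (x axis) and COLO205 (y axis), both in log2(FPKM + 1), for the 13553 tested genes, coloured by whether a difference was called and which line expresses the gene. The longest arm runs up the y axis, where ENTPD8 lies at 5.66 in COLO205 and 0.15 in HCT116, and DHRS2 lies below the line of equal effects at 2.37 and 3.42.

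The 2 largest differences were in a run of neighbouring genes that rose in COLO205. ENTPD8, an ectonucleotidase of the cell surface, had 0.807, 0.83 and 0.959 FPKM with DMSO and 93.8, 94.5 and 91.1 FPKM with ML-792 in COLO205. HCT116 libraries had 0.912, 1.06 and 1.06 FPKM with DMSO and 1.44, 1.18 and 1.11 FPKM with ML-792. The 3 COLO205 ML-792 libraries thus stood far above all 9 others, and the difference was 5.5 ± 0.09 (SE; adjusted p = 3.47e-14). NSMF, named for its part in NMDA receptor signalling, went from 12.3, 12.8 and 12.3 to 233, 240 and 240 FPKM in COLO205. In HCT116 it had 27.7, 30.8 and 32.7 FPKM with DMSO and 32.7, 29.9 and 27.8 FPKM with ML-792, groups that overlap fully. Its difference was 4.16 ± 0.09 (adjusted p = 8.56e-13). By the rule above both lines express both genes, although in COLO205 ENTPD8 reached 1 FPKM only with ML-792.

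PNPLA7, a lysophospholipase, went from 0.502, 0.563 and 0.494 to 13.1, 12 and 11.6 FPKM in COLO205, which alone expresses it, and had 0.551 to 0.824 FPKM in all 6 HCT116 libraries. In the order of the table, TOR4A, NRARP, EXD3, NOXA1, ENTPD8, NSMF and PNPLA7 follow each other, and the difference was called and positive for all 7. The Notch inhibitor NRARP differed by 2.22 ± 0.48 (adjusted p = 0.0149), with 16.3, 6.55 and 4.54 FPKM in the COLO205 ML-792 libraries, EXD3 by 0.95 ± 0.19 and NOXA1 by 0.99 ± 0.17. The TOR4A difference of 0.53 ± 0.13 came with a fall in HCT116 and no called effect in COLO205. On the flanks NELFB (0.00 ± 0.09) and MRPL41 (0.36 ± 0.15) were not called, while the clone AK310226 beyond MRPL41 was (0.55 ± 0.14). ENTPD8 and NOXA1 overlap in RefSeq and whether the authors' counting used strand is not given in the sources used here. Their reads may not be separable, nor those of MCF2L and MCF2L-AS1 in the next run.

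A second run held ATP11A, a phospholipid flippase, 2 transcripts known by the clone names AK025511 and BC035340, MCF2L-AS1, MCF2L and F10. ATP11A went from 32.9, 34.5 and 30.9 to 98.6, 95 and 98.1 FPKM in COLO205 and from 8.45, 7.52 and 7.57 to 9.62, 8.96 and 9.25 FPKM in HCT116. It rose in both lines, and the groups did not overlap in either. The difference was 1.33 ± 0.08 (adjusted p = 5.44e-08). MCF2L, a guanine nucleotide exchange factor, differed by 0.99 ± 0.09, and F10, the coagulation factor X gene, by 1.18 ± 0.16, although by the rule above HCT116 alone expresses F10. The neighbour on one side, TUBGCP3, differed by 0.22 ± 0.06, which was also called and came with a called rise in COLO205. PCID2 on the other side differed by -0.15 ± 0.07, which was not called. Among the 6 genes from ATP11A to F10 only ATP11A passed the test in HCT116.

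**Figure D3:**
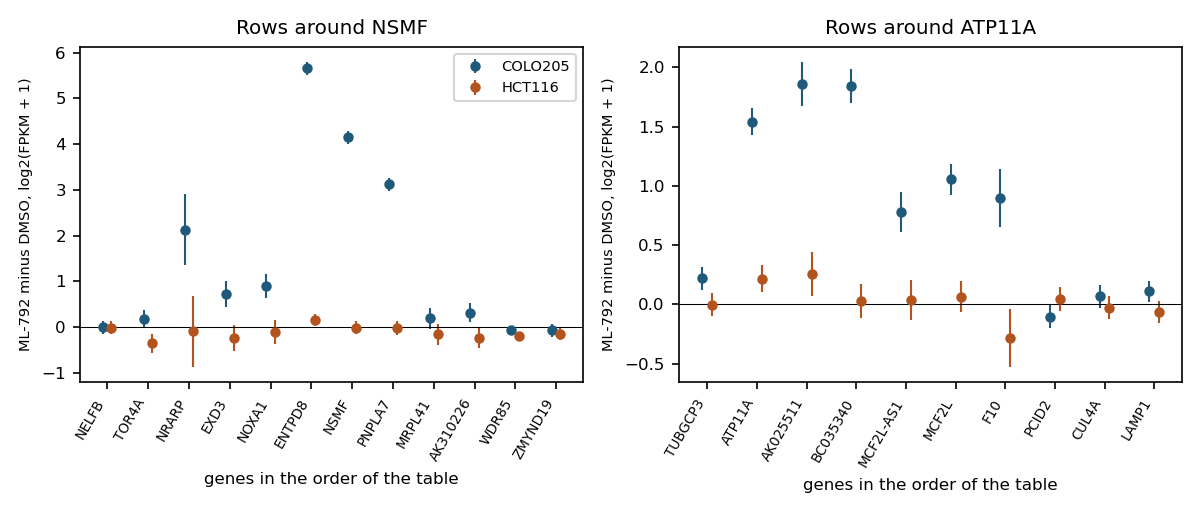
Effect of ML-792, log2(FPKM + 1), with 95% confidence intervals, for genes in the order of the table around NSMF (left) and ATP11A (right), COLO205 in blue and HCT116 in brown. In COLO205 the values stand highest at ENTPD8, NSMF and PNPLA7 and return to near 0 at NELFB and MRPL41.

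The 250 bases before the start site of 4 of the genes with large differences are shown to let their promoters be compared: NSMF and ENTPD8 because they rose side by side, and PLIN2 and CREB3L3 because they are lipid genes described next. They are taken from RefSeq on GRCh38.p14, 5′ to 3′ on the gene's strand, at chr9:137459335-137459584 (minus) for NSMF, chr9:137441358-137441607 (minus) for ENTPD8, chr9:19127493-19127742 (minus) for PLIN2 and chr19:4153381-4153630 (plus) for CREB3L3. Capitals mark 2 motifs searched on both strands, the CREB and ATF palindrome TGACGTCA, and a direct repeat of AGGNCA with 1 base between its arms, of the kind bound by PPAR receptors.
NSMF: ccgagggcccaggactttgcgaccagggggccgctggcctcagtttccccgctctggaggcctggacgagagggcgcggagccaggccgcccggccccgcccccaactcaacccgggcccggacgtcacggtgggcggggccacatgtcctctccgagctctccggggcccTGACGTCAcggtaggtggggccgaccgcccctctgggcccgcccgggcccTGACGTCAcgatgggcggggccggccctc
ENTPD8: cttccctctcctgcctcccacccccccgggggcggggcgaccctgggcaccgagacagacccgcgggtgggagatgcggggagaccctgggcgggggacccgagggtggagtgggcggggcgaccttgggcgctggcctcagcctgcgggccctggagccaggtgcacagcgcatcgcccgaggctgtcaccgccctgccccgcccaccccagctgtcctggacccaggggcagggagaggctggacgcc
PLIN2: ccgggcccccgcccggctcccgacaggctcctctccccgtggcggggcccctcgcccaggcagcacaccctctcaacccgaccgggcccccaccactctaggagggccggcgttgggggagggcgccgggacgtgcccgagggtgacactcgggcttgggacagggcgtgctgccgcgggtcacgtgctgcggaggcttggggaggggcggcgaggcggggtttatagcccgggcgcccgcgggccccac
CREB3L3: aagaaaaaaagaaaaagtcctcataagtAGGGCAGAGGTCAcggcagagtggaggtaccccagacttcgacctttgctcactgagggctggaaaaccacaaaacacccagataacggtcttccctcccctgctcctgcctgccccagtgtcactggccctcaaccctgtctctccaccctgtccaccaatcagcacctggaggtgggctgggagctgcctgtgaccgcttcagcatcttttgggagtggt
The NSMF window held 2 copies of TGACGTCA, and 1.65% of 35116 RefSeq windows of this length hold at least 1. CREB3L3 held 1 match to the direct repeat, of which 0.268% of windows hold at least 1. No match was found in the ENTPD8 and PLIN2 windows, nor in that of ADIRF, which was searched as well and is not printed. A match describes letters only. G and C make up 76.8% of the NSMF and ENTPD8 windows.

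Several genes of lipid droplets and fatty acid use rose in COLO205. PLIN2 codes for a coat protein of lipid droplets. It had 80.6, 80.8 and 85.4 FPKM with DMSO and 590, 621 and 631 FPKM with ML-792 in COLO205, against 9.87, 8.79 and 9.17 and then 8.28, 8.24 and 8.81 FPKM in HCT116. The rise was seen in every COLO205 library, and the difference was 3.01 ± 0.07 (adjusted p = 1.76e-12).

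ACSL1, which activates fatty acids with coenzyme A and which both lines express, differed by 1.30 ± 0.08 (22.0, 21.0 and 21.7 against 52.3, 56.1 and 62.4 FPKM in COLO205). CREB3L3, a liver and gut transcription factor of lipid metabolism, rose from under 0.1 FPKM to 3.46, 3.69 and 3.64 FPKM, and PDK4, which restrains pyruvate oxidation, from 0.366, 0.337 and 0.301 to 3.89, 4.12 and 3.99 FPKM. COLO205 alone expresses both, and their differences were 2.08 ± 0.07 and 1.79 ± 0.10. ADIRF, an adipogenesis factor, had 0.726, 0.631 and 0.38 FPKM with DMSO and 31.7, 27.0 and 23.3 FPKM with ML-792 in COLO205. HCT116 already had 139, 166 and 171 FPKM with DMSO and had 169, 160 and 157 FPKM with ML-792, so the COLO205 level stayed below that of HCT116. By the rule above both lines express ADIRF, although in COLO205 it reached 1 FPKM only with ML-792. The ADIRF difference of 4.13 ± 0.16 was 2.49 with a pseudocount of 5 and 5.33 with one of 0.1, and that of CREB3L3 was 0.76 and 4.41. Such values of genes near 0 in 1 group depend on the pseudocount.

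Of 25 tested genes of lipid droplets and PPAR targets, 12 had a higher and 2 a lower effect in COLO205, and 13 rose and 2 fell in COLO205 against 0 and 1 in HCT116. Their median difference was 0.18, beside -0.003 over all tested genes, and 56% were called, beside 16.3% of all genes. For counts within 1 line, here and in the lists below, 18.3% of all tested genes rose and 17.5% fell in COLO205. In HCT116 7.03% of all tested genes rose and 5.81% fell. Only 16 of the 25 are expressed in both lines, and a fit of the genes that both express gave 7 higher and 1 lower. The nuclear receptor gene PPARG itself fell in COLO205, and its difference was -0.54 ± 0.10. G0S2, an inhibitor of lipid breakdown that COLO205 alone expresses, also fell, from 5.43, 6.5 and 5.29 to 2.67, 2.6 and 1.2 FPKM.

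Among the other genes with the largest positive differences, ATHL1 (PGGHG), an enzyme of collagen sugar breakdown, went from 28.8, 28.3 and 29.7 to 135, 137 and 140 FPKM in COLO205 and stayed between 25.4 and 30.3 FPKM in HCT116. Its difference was 2.29 ± 0.08. GULP1, an adaptor for engulfment, differed by 2.03 ± 0.11 and rose from 9.46, 8.32 and 7.80 to 40.8, 35.3 and 33.7 FPKM in COLO205. KIAA1551 (RESF1), a factor of retroelement silencing, had 29.2, 20.2 and 12.2 FPKM in the COLO205 ML-792 libraries against 2.56 to 3.31 FPKM with DMSO. Its replicates were thus spread widely, and its difference was 1.91 ± 0.34 (adjusted p = 0.00523). PTMS, the parathymosin gene, rose from 7.25, 5.90 and 6.73 to 21.1, 20.6 and 21.0 FPKM in COLO205, while HCT116 had 268 to 362 FPKM in all libraries. Both lines express these 4 genes.

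Of genes that 1 line lacks, AGR2, a disulfide isomerase of secretory epithelium, went from 248, 235 and 252 to 543, 537 and 577 FPKM in COLO205 and was listed at 0 in all HCT116 libraries. PLA2G2A, a secreted phospholipase, fell from 1143, 1120 and 1197 to 711, 707 and 754 FPKM, though its difference of -0.69 ± 0.06 was not called with all 18 libraries of 16 h in the fit. LGALS4, an intestinal galectin, fell from 233, 235 and 238 to 201, 176 and 162 FPKM. HCT116 alone expresses AKAP12, a scaffold of protein kinase A, which fell there from 286, 248 and 246 to 165, 163 and 169 FPKM. Its difference of 0.79 ± 0.22 was not called with a pseudocount of 0.1 or without any of 8 libraries. CRABP2, a carrier of retinoic acid, had a difference of 0.64 ± 0.11 that came from a rise within COLO205 libraries that stayed under 1 FPKM. That difference was not called with a pseudocount of 5, and in HCT116 the CRABP2 effect did not pass the test.

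In the other direction, several genes rose more in HCT116 or rose there only. DHRS2, a short-chain dehydrogenase gene, rose in both lines. It went from 2.93, 1.94 and 2.31 to 21.4, 16.0 and 12.9 FPKM in COLO205 and from 5.5, 5.47 and 5.98 to 69.8, 72.4 and 68.9 FPKM in HCT116. The groups did not overlap in either line, and the difference was -1.05 ± 0.21 (adjusted p = 0.00659). ASMTL had 2.24, 2.60 and 2.16 FPKM with DMSO and 5.37, 4.08 and 2.50 FPKM with ML-792 in COLO205, where the groups overlap, and went from 18.9, 22.7 and 22.7 to 89.0, 88.7 and 81.8 FPKM in HCT116. Its difference was -1.43 ± 0.25, and -1.19 without COLO205 ML-792 library 3.

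ODC1, the first enzyme of polyamine synthesis, rose from 191, 187 and 185 to 373, 412 and 411 FPKM in HCT116. In COLO205 it had 141, 125 and 133 FPKM with DMSO and 137, 105 and 93.8 FPKM with ML-792, which did not pass the test. The difference was -1.34 ± 0.15 (adjusted p = 8.37e-05), and -1.23 without COLO205 ML-792 library 3. DDIT4, an inhibitor of mTORC1, fell in COLO205 from 258, 324 and 312 to 88.7, 104 and 75.9 FPKM, and its HCT116 values of 39.5, 43.6 and 52.5 and then 35.2, 32.1 and 31.9 FPKM did not pass the test. Its difference was -1.29 ± 0.18. TSC22D3, a glucocorticoid-induced gene, fell in COLO205 with a difference of -1.06 ± 0.28 that was lost without any of 8 libraries, and was -0.77 and called without COLO205 ML-792 library 3.

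**Figure D4:**
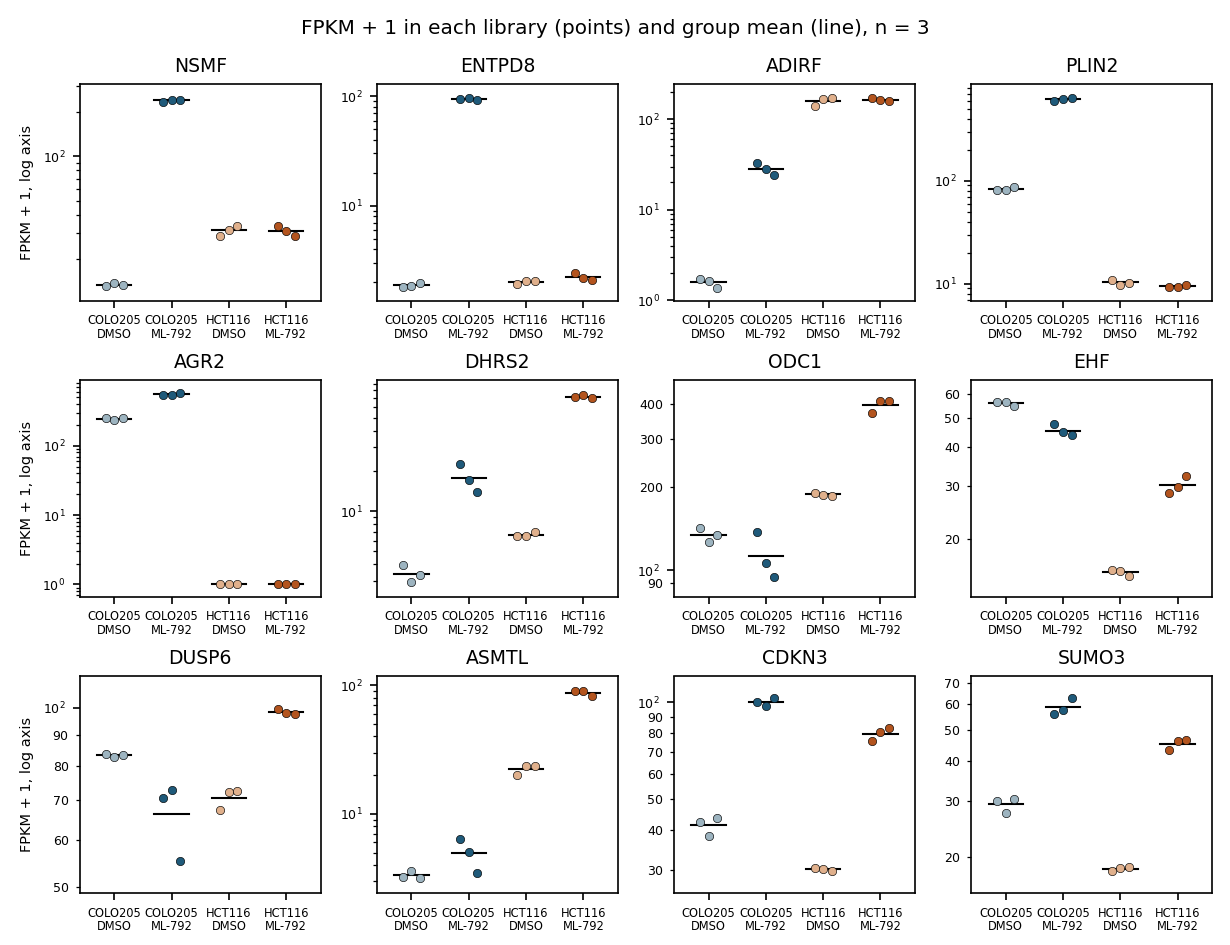
FPKM + 1 (log axis) in each library (points, libraries 1, 2 and 3 from left to right) and arithmetic group means (lines) for 12 genes; the axes differ between panels. NSMF, ENTPD8, ADIRF, PLIN2 and AGR2 move in COLO205, ODC1 and ASMTL mainly in HCT116, EHF and DUSP6 in opposite directions, and CDKN3 and SUMO3 upward in both.

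Effects in opposite directions were found for 93 genes, 78 of them expressed in both lines. That count was 52, 51, 43 and 46 without HCT116 DMSO library 2, DMSO library 3, ML-792 library 2 and ML-792 library 3. It was 123 and 130 without HCT116 DMSO library 1 and ML-792 library 1. FGFR3, a growth factor receptor, had 6.15, 6.29 and 5.86 and then 10.6, 10.8 and 9.65 FPKM in COLO205, and 11, 11.5 and 11.8 and then 8.67, 7.21 and 7.37 FPKM in HCT116. It thus rose in COLO205 and fell in HCT116 without overlap, with a difference of 1.19 ± 0.09 (adjusted p = 1.24e-06). The death receptor gene TNFRSF25 (1.18 ± 0.11), the organic anion pump gene ABCC2 (0.79 ± 0.07) and the HSP70 gene HSPA1B (0.83 ± 0.13) did the same. HSPA1B is nearly identical to HSPA1A, so its reads may be split between the 2 genes and its value is uncertain.

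EHF, an epithelial ETS factor, did the reverse. It fell from 55.3, 55.4 and 53.5 to 46.5, 43.8 and 42.8 FPKM in COLO205 and rose from 14.9, 14.8 and 14.2 to 27.4, 28.6 and 31.1 FPKM in HCT116. The groups did not overlap in either line, and the difference was -1.24 ± 0.07 (adjusted p = 5.88e-08). DUSP6, a phosphatase of ERK, had 82.6, 81.7 and 82.3 and then 69.5, 71.9 and 54.5 FPKM in COLO205, and 66.3, 71.2 and 71.6 and then 98.6, 97.0 and 96.5 FPKM in HCT116. The ERK pathway inhibitor SPRY4 moved alike, with a difference of -0.62 ± 0.08, and so did BAMBI, a decoy receptor of the TGF-beta family, at -0.84 ± 0.10. The DUSP6 difference was -0.82 ± 0.11, and -0.69 without COLO205 ML-792 library 3.

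Negative feedback genes and ligands of the MAP kinase pathway had lower effects in COLO205. Of 27 tested members 9 were lower and 0 higher (33.3% called, beside 16.3% of all genes). In COLO205 15 fell, and in HCT116 4 fell and 3 rose. The median difference was -0.43, and -0.21 with 12 lower and 1 higher without COLO205 ML-792 library 3. SPRY2, an inhibitor of the pathway, fell in COLO205 from 30.6, 32.1 and 31.6 to 22, 20.8 and 20.8 FPKM and had 3.5 to 3.98 FPKM in HCT116 (-0.55 ± 0.07). EREG, an EGF receptor ligand, had 136, 130 and 132 FPKM with DMSO and 234, 248 and 268 FPKM with ML-792 in HCT116. It had 93.7, 91 and 88.4 and then 80.7, 79.6 and 32 FPKM in COLO205. Neither line's own effect passed the test, although the groups did not overlap in either line. The test uses 1 spread for all 4 groups, so the low COLO205 ML-792 library 3 also widens the error of the HCT116 effect. The EREG difference of -1.52 ± 0.42 (adjusted p = 0.041) was lost with equal totals or without any of 9 libraries other than the COLO205 ML-792 ones. It was -1.09 and called without COLO205 ML-792 library 3.

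Among 24 immediate early genes 2 were lower and 1 higher (12.5%, beside 16.3% of all genes), with a median of -0.32. These were ZFP36, a destabilizer of messenger RNA (-1.21 ± 0.28), MYC (-0.52 ± 0.08) and BTG2 (0.38 ± 0.08). With 1 library left out the ZFP36 difference lay between -1.37 and -0.91. Without COLO205 ML-792 library 3, 7 were lower and 2 higher and the median was -0.25. EGR1 then differed by -0.28, FOS by -0.69 and ATF3 by -0.69, all called, whereas with all libraries their differences of -1.03, -1.24 and -1.25 were not. Counts of lower members were also 4 without COLO205 ML-792 library 1 and 6 without HCT116 DMSO library 3. Of 19 cytokine and NF-kB genes, 6 were lower and 0 higher (31.6%). Among them were LIF (-0.50 ± 0.07), a cytokine that fell in both lines, and the inhibitor gene NFKBIA (-0.56 ± 0.11). TNFAIP2, a TNF-induced gene, rose in HCT116 (-0.34 ± 0.09), and its difference was lost with equal totals or without COLO205 DMSO library 2 or ML-792 library 2. The count of 6 was between 2 (without COLO205 ML-792 library 2) and 12 (without COLO205 ML-792 library 1) when 1 library was left out, and 3 without COLO205 DMSO library 2 or HCT116 ML-792 library 2. It was also 3 with equal totals or a pseudocount of 0.1.

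Genes of protein folding in the endoplasmic reticulum rose in COLO205. Of 20 tested members of the unfolded protein response 13 had a higher and 2 a lower effect there, with a median difference of 0.31. The share called was 75%, beside 16.3% of all genes. In COLO205 15 rose and 0 fell, and in HCT116 4 rose and 0 fell. HSPA5, the chief chaperone of that compartment, had 456, 464 and 491 and then 663, 708 and 797 FPKM in COLO205, and 257, 256 and 247 and then 266, 272 and 272 FPKM in HCT116. Its difference was 0.52 ± 0.08 (adjusted p = 0.000636), and that of the disulfide isomerase gene PDIA4 was 0.58 ± 0.07. HSP90B1, the HSP90 of that compartment, rose in both lines, more in COLO205 (0.45 ± 0.08). The exceptions were XBP1 (-0.26), a transcription factor of the response, and CREB3L2 (-0.31), a membrane-bound relative of it, and the count of lower members was 1 without any of 7 libraries.

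The amino acid arm moved the other way. Of 26 tested ATF4 and amino acid response genes 13 had a lower and 0 a higher effect in COLO205, where 21 fell and 0 rose. In HCT116 0 rose and 0 fell. The 13 were 50% of the tested members, beside 16.3% of all genes with a difference called. The median difference was -0.30, and -0.23 without COLO205 ML-792 library 3. Among the 13 were the aminoacyl-tRNA synthetase genes GARS (GARS1; -0.39 ± 0.06) and EPRS (EPRS1; -0.38 ± 0.07), the asparagine synthetase gene ASNS (-0.62 ± 0.14) and the serine synthesis genes PHGDH (-0.29), PSAT1 (-0.50) and PSPH (-0.52 ± 0.09). ASNS had 115, 116 and 115 and then 81.2, 81.8 and 59.6 FPKM in COLO205, and 81.4 to 95.1 FPKM in all HCT116 libraries. Its difference was -0.47 without COLO205 ML-792 library 3.

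Ribosome biogenesis genes also had lower effects in COLO205, 18 of 26 against 1 with a higher effect, with a median of -0.26. The share called was 73.1%, beside 16.3% of all genes. In COLO205 23 fell and 0 rose, and in HCT116 4 fell and 1 rose. DKC1, the pseudouridine synthase of box H/ACA particles, had 88.0, 86.7 and 89.6 and then 60.9, 64.3 and 63.7 FPKM in COLO205, and 61.0 to 67.6 FPKM in all HCT116 libraries. Its difference was -0.50 ± 0.06 (adjusted p = 8.81e-05), and that of FBL, the ribosomal RNA methyltransferase fibrillarin, -0.40 ± 0.06. WDR43, a factor of the small subunit processome, differed by -0.37 ± 0.07. Leaving out COLO205 DMSO library 2 or 3, COLO205 ML-792 library 2 or HCT116 ML-792 library 2 brought the 18 to 10, 9, 11 and 10. The 1 higher member was the ribosomal DNA factor UBTF (0.22), and that count was 0 without any of 10 libraries.

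**Figure D5:**
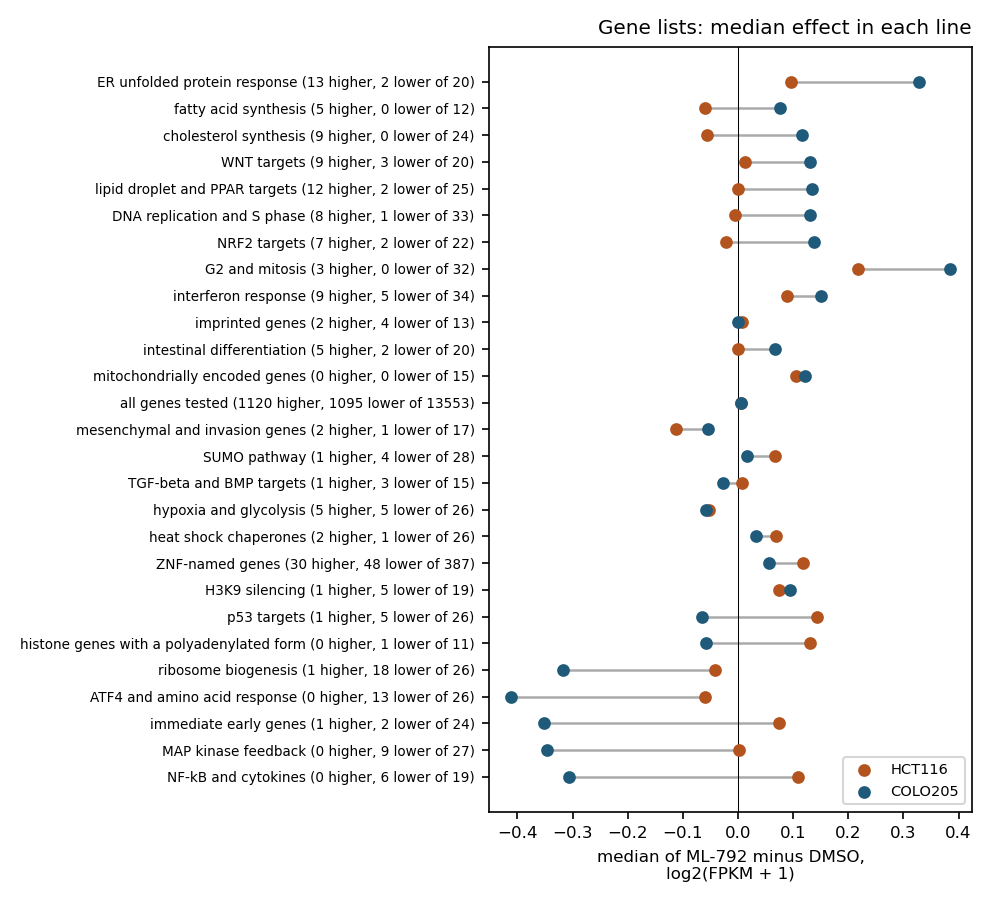
Median effect of ML-792, log2(FPKM + 1), over the tested members of each gene list in COLO205 (blue) and HCT116 (brown), sorted by the median difference, with the number of members whose difference was called in brackets. The unfolded protein response lies at 0.33 in COLO205 and 0.10 in HCT116, and the ATF4 list at -0.41 and -0.06.

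Sterol and fatty acid synthesis genes had higher effects in COLO205. Of 24 cholesterol synthesis genes 9 were higher and 0 lower (1 lower without COLO205 ML-792 library 1 or 3), with a median of 0.21. The share called was 37.5%, beside 16.3% of all genes. In COLO205 10 rose and 1 fell, and in HCT116 0 rose and 5 fell. INSIG1, which retains the sterol sensor, had 30.9, 31.4 and 32.5 and then 50.4, 56.5 and 62.2 FPKM in COLO205 and 13.6 to 15.6 FPKM in HCT116 (0.70 ± 0.09), and the sterol carrier gene STARD4 differed by 0.62 ± 0.09. FDFT1, squalene synthase, rose in COLO205 and fell in HCT116 (0.53 ± 0.08). Of 12 fatty acid synthesis genes 5 were higher and 0 lower (41.7%). The higher count was 3 without COLO205 DMSO library 1, COLO205 ML-792 library 2 or HCT116 ML-792 library 2. ACSS2, which makes acetyl coenzyme A from acetate, rose in COLO205 and fell in HCT116 (0.55 ± 0.06), and the desaturase gene SCD fell in HCT116 and did not pass the test in COLO205 (0.30 ± 0.06). The elongase gene ELOVL6 rose in COLO205 (0.34 ± 0.07).

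Of 22 NRF2 targets 7 were higher and 2 lower (40.9%, beside 16.3% of all genes). HMOX1, heme oxygenase, fell in both lines, from 8.23, 8.28 and 8.43 to 1.80, 2.08 and 2.00 FPKM in COLO205 and from 14.3, 14.8 and 14.0 to 7.31, 7.74 and 7.01 FPKM in HCT116. The fall was the larger in COLO205, with a difference of -0.77 ± 0.07 (adjusted p = 9.85e-06). FTH1, the ferritin heavy chain, rose in both, more in COLO205 (0.39 ± 0.06). Of 26 genes of hypoxia and glycolysis 5 were higher and 5 lower (38.5%). The glucose transporter gene SLC2A1 (-0.86 ± 0.10) and CA9, a carbonic anhydrase that COLO205 alone expresses (-0.70 ± 0.09), fell in COLO205, and EGLN3, an oxygen-sensing prolyl hydroxylase, rose there (0.53 ± 0.08). The lower count was 3 without any of 7 libraries.

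Many mitotic genes rose in both lines. Of 32 mitotic and G2 genes, 29 rose in COLO205 and 17 in HCT116, beside 18.3% and 7.03% of all tested genes. None of the 32 fell in either line by the limma test, and the median effects were 0.38 and 0.22. The difference was called for 3 (9.38%, beside 16.3% of all genes), all higher in COLO205: CDK1 (0.28 ± 0.09), the kinase of mitotic entry, PRC1 (0.28 ± 0.07), which bundles spindle midzone microtubules, and NUSAP1 (0.30 ± 0.09), a spindle protein. That count was 5 without COLO205 ML-792 library 1 and 1 without any of 6 other libraries, COLO205 ML-792 library 3 among them. With no filter on low values CDK1 and NUSAP1 were not called. Without a library, CDK1 was lost in 10 cases and NUSAP1 in 7. Of 33 S phase and replication genes, 8 were higher and 1 lower (27.3%). In COLO205 13 of them rose and 1 fell, and 8 rose and 2 fell without COLO205 ML-792 library 3. In HCT116 1 rose and 2 fell, and the median effects were 0.13 and -0.01. SLBP, the histone stem-loop binding protein, went from 40.3, 41.0 and 44.8 to 84.4, 90.3 and 89.4 FPKM in COLO205 and stayed between 66.6 and 75.8 FPKM in HCT116 (0.98 ± 0.07; adjusted p = 8.64e-07). CCNE1, the S phase cyclin E1, rose in COLO205 (0.54 ± 0.09). RRM2, a subunit of ribonucleotide reductase, was the 1 lower member and rose in both lines (-0.57 ± 0.07). Of 26 p53 targets 5 were lower and 1 higher (23.1%). The lower ones included the nuclease gene AEN (-0.44 ± 0.07) and the death receptor gene FAS (-0.37 ± 0.08), which HCT116 alone expresses. The higher one, BTG2, was lost with a pseudocount of 5. Lower members numbered 3 without any of 7 libraries and 7 without COLO205 ML-792 library 3.

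Of 28 genes of the SUMO pathway 1 was higher and 4 lower, 17.9% beside 16.3% of all genes. SUMO2 rose in both lines, from 165, 159 and 171 to 276, 293 and 321 FPKM in COLO205 and from 393, 416 and 381 to 502, 553 and 562 FPKM in HCT116, and the difference was 0.40 ± 0.09 (adjusted p = 0.006). SUMO3 rose from 28.8, 26.4 and 29.4 to 54.8, 56.6 and 61.7 FPKM in COLO205 and from 17.1, 17.4 and 17.7 to 42.3, 45.0 and 45.5 FPKM in HCT116. Its difference had the opposite sign, -0.29 ± 0.08 (adjusted p = 0.0185), and was lost without COLO205 DMSO library 3 or HCT116 ML-792 library 2. The differences of SAE1 (-0.04 ± 0.05) and UBA2 (-0.10 ± 0.07) were not called. The targets of the drug are coded by SAE1 and UBA2, which had 69.3 to 122 FPKM and 45.4 to 54.7 FPKM over all 12 libraries. The lower members included the desumoylating isopeptidase genes DESI2 (-0.47 ± 0.09) and DESI1 (-0.34 ± 0.08). The lower count was 2 without COLO205 DMSO library 3 or HCT116 ML-792 library 2.

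Of 19 genes of H3K9 silencing 5 had a lower and 1 a higher effect in COLO205 (31.6%, beside 16.3% of all genes). ATF7IP, a partner of the H3K9 methyltransferase SETDB1, rose in both lines, from 7.14, 6.79 and 6.54 to 16.4, 15.8 and 14.7 FPKM in COLO205 and from 8.31, 7.33 and 7.53 to 23.1, 24.2 and 23.7 FPKM in HCT116 (-0.41 ± 0.08). ZNF274, a zinc finger protein that recruits SETDB1, rose in both (-0.60 ± 0.11), and MORC2, an ATPase of silenced chromatin, rose in HCT116 and fell in COLO205 (-0.49 ± 0.06). The higher count was 2 or 3 without any of 4 libraries. Of 387 tested genes with ZNF names 30 were higher and 48 lower, 20.2% called beside 16.3% of all genes. In COLO205 117 rose and 39 fell, beside 18.3% and 17.5% of all genes. In HCT116 123 rose and 5 fell, beside 7.03% and 5.81% of all genes. Lower calls numbered between 27 and 54 with 1 library left out, 30 without COLO205 ML-792 library 3 or COLO205 DMSO library 2, and 28, 27 and 31 without HCT116 DMSO library 2, ML-792 library 2 and ML-792 library 3. It was also 30 with equal totals. ZNF239 (-0.84 ± 0.11), which fell in COLO205 and rose in HCT116, had the smallest adjusted p among those that both lines express and ZNF841 (0.79 ± 0.08), which COLO205 alone expresses, the smallest of all, though it was not called with a pseudocount of 0.1. ZNF525, which HCT116 alone expresses, rose there (-0.62 ± 0.09).

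Interferon response genes moved in both directions. Of 34 tested 9 were higher and 5 lower (41.2%, beside 16.3% of all genes). In COLO205 16 rose and in HCT116 8, beside 18.3% and 7.03% of all genes. OAS1, a sensor of double-stranded RNA, went from 13.2, 14.3 and 14.5 to 45.2, 46.8 and 53.7 FPKM in COLO205, which alone expresses it (1.74 ± 0.10). Its relative OASL fell in COLO205 from 5.82, 5.90 and 5.74 to 2.68, 2.85 and 2.77 FPKM and rose in HCT116 from 1.00, 0.907 and 0.969 to 1.23, 1.2 and 1.19 FPKM. The OASL difference was -1.03 ± 0.07 (adjusted p = 2.71e-07). IFITM2, a membrane protein that limits virus entry, rose in COLO205 from 0.561, 0.51 and 0.669 to 1.93, 2.44 and 2.27 FPKM and had 72 to 92.2 FPKM in HCT116. Its difference of 0.87 ± 0.10 was not called with a pseudocount of 5.

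Of 20 WNT targets 9 were higher and 3 lower (60%, beside 16.3% of all genes), with a median of 0.20. In a fit of the genes that both lines express, which holds 12 of them, 3 were higher and 3 lower and the median was -0.06. DKK1, a secreted WNT inhibitor that HCT116 alone expresses, fell there from 90.2, 82.7 and 83.3 to 36.1, 36.4 and 38.1 FPKM, and its difference of 1.29 ± 0.11 was not called with a pseudocount of 0.1. BMP4 rose in both lines, more in COLO205 (0.66 ± 0.08), and the crypt stem cell genes LGR5 (0.48) and ASCL2 (0.68 ± 0.09), which COLO205 alone expresses, rose there. The lower count was 5 without COLO205 ML-792 library 3 or HCT116 DMSO library 3. Of 15 TGF-beta and BMP targets 3 were lower and 1 higher (26.7%). The matrix gene TGFBI (-1.09 ± 0.07) fell in COLO205 from 91.0, 95.5 and 96.7 to 42.8, 45.9 and 44.3 FPKM, while HCT116 had 0 to 0.0421 FPKM. ID2, an inhibitor of helix-loop-helix factors, rose in both lines, more in HCT116 (-0.39 ± 0.09). The 1 higher member was its relative ID3 (0.38), and that count was 0 without any of 8 libraries.

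Of 20 tested genes of intestinal differentiation, 12 of which COLO205 alone expresses, 5 were higher and 2 lower (35%, beside 16.3% of all genes). In the fit of genes that both lines express, which holds 6 of them, 1 was higher and 0 lower. Besides ENTPD8 they included GUCA2A, the guanylin gene, which rose in COLO205 from 3.73, 4.29 and 4.37 to 7.11, 8.02 and 7.73 FPKM and was listed at 0 in HCT116. CDX2, an intestinal homeobox factor that by the rule HCT116 alone expresses, rose in COLO205 from 0.268, 0.288 and 0.267 to 0.746, 0.787 and 1.07 FPKM (0.64 ± 0.11). The lower count was 1 without any of 8 libraries and 3 without COLO205 ML-792 library 3. Of 17 mesenchymal and invasion genes 2 were higher and 1 lower (17.6%). ITGB4, the integrin of hemidesmosomes, fell in HCT116 from 92.5, 90.6 and 97.7 to 51.1, 43.7 and 43.7 FPKM and had 172 to 186 FPKM in all COLO205 libraries (0.95 ± 0.08; adjusted p = 2.62e-06), and the urokinase gene PLAU fell in both lines, more in HCT116 (0.45 ± 0.09). The 1 lower member was the integrin gene ITGA2 (-0.36 ± 0.10), which fell in both lines. It was lost with equal totals or without any of 6 libraries, COLO205 ML-792 library 3 among them.

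Of 13 imprinted genes 2 were higher and 4 lower (46.2%, beside 16.3% of all genes). The non-coding RNA H19 rose in both lines, from 6.2, 5.65 and 5.64 to 45.9, 45.9 and 49.1 FPKM in COLO205 and from 1.36, 1.35 and 1.43 to 8.03, 5.13 and 5.38 FPKM in HCT116 (1.24 ± 0.16). GRB10, an adaptor that restrains growth factor signalling, fell in COLO205 from 11.4, 11.2 and 10.5 to 5.89, 5.1 and 3.36 FPKM (-0.94 ± 0.17). PEG10, which HCT116 alone expresses, rose there (-0.37 ± 0.07), and its difference was not called with a pseudocount of 0.1. The lower count was 2 without HCT116 ML-792 library 2. Of 11 histone genes with a polyadenylated form 1 was lower (9.09%). The difference of that gene, HIST1H2AC (H2AC6), was -1.02 ± 0.27. It was lost without any of 8 libraries and was -0.74 and called without COLO205 ML-792 library 3. PRAME, a cancer-testis antigen that HCT116 alone expresses, rose there from 22.7, 23.7 and 23.4 to 38.8, 42.4 and 39.1 FPKM. Its difference of -0.63 ± 0.07 changed sign to 0.075 and was not called with a pseudocount of 0.1. Of 26 heat shock chaperone genes 2 were higher and 1 lower (11.5%). The higher ones were HSPA1B and the cochaperone gene BAG3 (0.51 ± 0.09). The lower one was HSPD1, the mitochondrial chaperonin (-0.30 ± 0.06), which fell in COLO205 and rose in HCT116. The lower count was 3 with equal totals, median-of-ratios scaling or a filter at 5 FPKM, 5 with all 18 libraries of 16 h, 6 without COLO205 ML-792 library 3 and 2 without any of 4 others. Of 15 mitochondrially encoded genes limma called a difference for 0, with 1 higher at an unadjusted p under 0.05 and 1 called without HCT116 DMSO library 3. In COLO205 6 of them rose, and 2 without COLO205 ML-792 library 3.

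Few large changes were shared with no called difference. Only CDKN3 and ADAM19 were above the median level, changed at least 2-fold the same way in both lines and had no difference called. The base for this was small, as 31 genes had a called change of at least 2-fold in HCT116. At any size, 727 of the 10872 genes that both lines express were called in the same direction in both lines, with or without a called difference. CDKN3, a phosphatase of cyclin-dependent kinases, went from 41.5, 37.3 and 42.5 to 99.2, 96.5 and 102 FPKM in COLO205 and from 29.5, 29.2 and 28.8 to 74.8, 79.8 and 82.1 FPKM in HCT116. Its difference of -0.13 ± 0.07 had a 95% interval of -0.29 to 0.03. ADAM19, a membrane metalloprotease, fell from 10.7, 11 and 11 to 2.92, 3.17 and 3.36 FPKM in COLO205 and from 29.8, 28.8 and 29.5 to 13.1, 10.9 and 11.3 FPKM in HCT116. The difference of -0.27 ± 0.09 was just outside the threshold (adjusted p = 0.0511). It was called under 5 alternative settings and without either of 2 libraries, and was 0.072 with a pseudocount of 5.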

How the data were processed

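RNA was sequenced from COLO205 and HCT116 cells as biological triplicates of each treatment, with column-purified RNA and a stranded mRNA kit, per the labels' protocols. The deposited table holds FPKM values that the authors computed, 1 column per library for 30373 genes. DESeq2 1.10.1 is named in the submitters' processing notes, with no role stated. Which aligner, build and annotation they used is not given in the sources used here. FPKM values are not counts, so no count test was run. Steps in the low values gave an estimated depth of 27.4 to 34.9 M fragments per library.

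Values were analysed as log2(FPKM + 1), which understates changes of low genes, for genes with at least 1 FPKM in at least 3 of the 12 libraries. limma 3.58.1 in R 4.3.3 fitted 4 group means with a robust, trended variance, and p-values were adjusted over all tested genes by the method of Benjamini and Hochberg. The script was tested on simulated data. A ± is the standard error.

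Genes were named by several rules. The first took called genes above the median level, with no overlap of the differences of both lines. Of these, the 8 largest in each direction were named for genes that both lines express. Up to 4 of the largest that COLO205 alone or HCT116 alone expresses, and 4 with opposite effects in each direction, were added. Shared changes of at least 2-fold without a called difference had to lie above the median level. Genes of SUMO conjugation were named whether called or not. Up to 3 called genes per list were named without a limit on level or overlap. Some genes that the rule names are not reported here. Neighbours, further list members and lipid genes outside the rule, and growth factor genes of the library that stood apart, were chosen after their values were seen. The members and lists were chosen with earlier results of these data known. Other pseudocounts, filters, scalings, variance models, an 18-library fit, a GC and length correction and each left-out library were tried.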

Additional observations from a re-analysis of the deposited data

Results flagged for a closer look

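The results below are the 94 named genes whose ML-792 effect differed between COLO205 and HCT116 by the interaction contrast in limma (adjusted p under 0.05 over all tested genes). Each value is the COLO205 effect minus the HCT116 effect on the log2(FPKM + 1) scale. Genes with a positive difference whose ML-792 effect passed the test in COLO205 and not in HCT116 were ENTPD8 (5.5), NSMF (4.16), ADIRF (4.13), PLIN2 (3.01), ATHL1 (2.29), CREB3L3 (2.08), GULP1 (2.03), KIAA1551 (1.91), OAS1 (1.74), PTMS (1.32), AGR2 (1.17), SLBP (0.98), IFITM2 (0.87), ZNF841 (0.79), GUCA2A (0.75) and INSIG1 (0.70). To these were added ASCL2 (0.68), CDX2 (0.64), CRABP2 (0.64), STARD4 (0.62), PDIA4 (0.58), CCNE1 (0.54), EGLN3 (0.53), HSPA5 (0.52), BAG3 (0.51), BTG2 (0.38), ELOVL6 (0.34), NUSAP1 (0.30) and CDK1 (0.28). Genes with a negative difference whose ML-792 effect passed the test in COLO205 and not in HCT116 were DDIT4 (-1.29), TGFBI (-1.09), TSC22D3 (-1.06), HIST1H2AC (-1.02), GRB10 (-0.94), SLC2A1 (-0.86), CA9 (-0.70), PLA2G2A (-0.69), NFKBIA (-0.56), SPRY2 (-0.55), PSPH (-0.52), DKC1 (-0.50), LGALS4 (-0.47), AEN (-0.44), FBL (-0.40) and GARS (-0.39). To these were added EPRS (-0.38), WDR43 (-0.37) and DESI1 (-0.34). Genes with a positive difference whose effect passed the test in HCT116 and not in COLO205 were DKK1 (1.29), ITGB4 (0.95), AKAP12 (0.79) and SCD (0.30). Genes with a negative difference whose effect passed the test in HCT116 and not in COLO205 were ODC1 (-1.34), ZFP36 (-1.21), PRAME (-0.63), ZNF525 (-0.62), DESI2 (-0.47), PEG10 (-0.37), FAS (-0.37) and TNFAIP2 (-0.34). Genes with a positive difference whose effect had the same direction in both lines and the larger size in COLO205 were ATP11A (1.33), H19 (1.24), BMP4 (0.66), HSP90B1 (0.45), SUMO2 (0.40), FTH1 (0.39) and PRC1 (0.28). Genes with a negative difference whose effect had the same direction in both lines and the larger size in COLO205 were HMOX1 (-0.77), MYC (-0.52), LIF (-0.50) and ITGA2 (-0.36). The positive difference of PLAU (0.45) belonged to a gene whose effect had the same direction in both lines and the larger size in HCT116. Genes with a negative difference whose effect had the same direction in both lines and the larger size in HCT116 were ASMTL (-1.43), DHRS2 (-1.05), ZNF274 (-0.60), RRM2 (-0.57), ATF7IP (-0.41), ID2 (-0.39) and SUMO3 (-0.29). Genes with a positive difference whose effects passed the test in opposite directions were FGFR3 (1.19), TNFRSF25 (1.18), HSPA1B (0.83), ABCC2 (0.79), ACSS2 (0.55) and FDFT1 (0.53). Genes with a negative difference whose effects passed the test in opposite directions were EHF (-1.24), OASL (-1.03), BAMBI (-0.84), ZNF239 (-0.84), DUSP6 (-0.82), SPRY4 (-0.62), MORC2 (-0.49) and HSPD1 (-0.30). The negative difference of EREG (-1.52) belonged to a gene whose effect passed the test in neither line alone.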

How the results depend on the processing

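Of 94 reported named genes with a called difference, 77 kept direction and call under all 10 alternative settings and without each of the 12 libraries. The call was lost under at least 1 setting for 14 and without at least 1 library for 9. A fit of only the genes that both lines express gave 745 genes with a higher effect in COLO205 and 48 with a difference of at least 2-fold. The latter count was 227 with a pseudocount of 0.1 and 37 with one of 5. Leaving out 1 library moved the called differences between 1577 and 2387, the HCT116 calls between 892 and 2584 and the effects in opposite directions between 43 and 130. The sign changed for ADAM19 (0.072 with a pseudocount of 5) and PRAME (0.075 with a pseudocount of 0.1). The cause was not tested. In the fit of genes that both lines express, lower members numbered 3 of the p53 targets, 2 of the interferon genes, 2 of the imprinted genes and 29 of the ZNF-named genes, of which 15 were higher. Equal totals gave 3 lower p53 targets, 3 lower hypoxia genes and 3 higher H3K9 silencing genes. With a pseudocount of 0.1, 3 p53 targets, 3 interferon genes and 2 imprinted genes were lower. With all 18 libraries 15 interferon genes were higher, and 5 WNT targets and 3 histone genes lower. Of called differences, 50.6% were higher in COLO205, and 58.6% with equal totals and 44.4% with the GC and length trend removed. No paired analysis was possible because no replicate numbers shared between groups are in the labels. Each group had 3 libraries, depth was estimated rather than given, and differences of genes under 1 FPKM in 1 line depend on the pseudocount.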
